A study of Mus musculus with 2 samples.

Results

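Chemokines are small secreted or membrane-bound proteins that steer cells along their gradients through G protein-coupled receptors. In the central nervous system, microglia and the macrophages of the meninges and perivascular spaces make CC chemokines that call in monocytes and lymphocytes, astrocytes and vessel cells make CXC chemokines that attract neutrophils and T cells, and meningeal and endothelial cells make Cxcl12, which holds progenitors and guides migrating cells. Cx3cl1 is a membrane-anchored chemokine read by the microglial receptor Cx3cr1. The 10 genes described here were Ccl2, Ccl7, Ccl12, Ccl3, Ccl4, Ccl24, Cxcl1, Cxcl10, Cxcl12 and Cx3cl1. They were chosen by symbol, and all 10 were among the 32285 genes listed in both libraries.

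Single cells were dissociated from whole spinal cords of FVB mice at postnatal day 4 and captured with a 3' droplet kit. In the library labelled SMA the animals were mSmn-/-, hSMN22tg/0, a model of severe spinal muscular atrophy in which both mouse Smn alleles are inactive. In the library labelled Con they were mSmn+/-, hSMN22tg/0, so the controls also carried the human SMN2 transgene and had a single working mouse allele. Cords of littermates were pooled, so each group was 1 library and no value below has a replicate, a test or a standard deviation. Intervals are 95% exact intervals that cover counting error only, whereas the UMIs (unique molecular identifiers, the counted transcripts) of these genes were clumped in few cells.

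The libraries held 26921 barcodes and 85872075 UMIs (SMA) and 25419 barcodes and 97894084 UMIs (Con), of which 8163 barcodes were listed in both. Of the barcodes with at least 5000 UMIs, 99.0% in Con but 2.78% in SMA were shared, so SMA cells with a shared barcode were left out, which left 6787 SMA and 8920 Con cells. Their median depths were close, at 6109 and 6228.5 UMIs. Clustered together with the left-out cells, they fell into 35 clusters. All but 1 could be assigned by marker genes to 14 classes, and the libraries were compared in the 11 classes that had 50 or more cells from each. No marker of a class was at 0 in it, and all markers were higher in their class than in the rest except 1 of the 10 oligodendrocyte markers in Con. Smn1, the targeted gene, was not lower in the library labelled SMA. Its level was 48.1 CPM (UMIs per 1000000 UMIs summed, interval 46.2 to 50.2) there and 43.8 (42.1 to 45.5) in the library labelled Con. It was thus slightly higher in SMA, beyond counting error. Which part of the transcript these UMIs came from was not analysed here. SMA and Con therefore stand below for the libraries as labelled.

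The genes lie in groups on the mouse genome (GRCm38, GENCODE annotation), and all 10 are protein coding. Ccl2 (chr11:82035571-82037453, plus strand), Ccl7 (chr11:82045712-82047525, plus) and Ccl12 (chr11:82101845-82103400, plus) follow each other, with 8258 bases between the first pair and 54319 between the second. Ccl3 (chr11:83647844-83649355, minus) and Ccl4 (chr11:83662584-83664683, plus) are 13228 bases apart and face away from each other. Cxcl1 (chr5:90891241-90893115, plus), Cxcl10 (chr5:92346638-92348889, minus) and Ccl24 (chr5:135569937-135573049, minus) share chromosome 5 at larger distances. Cxcl12 is at chr6:117168535-117181367 (plus) and Cx3cl1 at chr8:94772009-94782427 (plus). Runs of 50 bases in the transcripts of these genes were searched among the transcripts of other genes, and 0 were shared, so the paralogs could be told apart at that read length.

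The RefSeq promoter table (GRCm38.p6) held 6 of the 10 genes. Printed here are the 250 bases before the start of Cxcl1 and Cxcl10, the 2 members with a match, and of Ccl12 as an example of the others. Capitals mark matches, on either strand, to the NF-kB consensus, to the interferon-response pair (TTTC, any 2 bases, TTTC) and to the AP-1 motif TGANTCA.
Cxcl1 (chr5:90890995-90891244, plus strand): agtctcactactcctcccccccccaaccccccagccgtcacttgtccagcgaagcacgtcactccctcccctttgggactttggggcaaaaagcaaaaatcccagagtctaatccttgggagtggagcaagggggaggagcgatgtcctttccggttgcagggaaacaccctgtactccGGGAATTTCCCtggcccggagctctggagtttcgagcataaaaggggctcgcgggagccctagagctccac
Cxcl10 (chr5:92348890-92349139, minus strand): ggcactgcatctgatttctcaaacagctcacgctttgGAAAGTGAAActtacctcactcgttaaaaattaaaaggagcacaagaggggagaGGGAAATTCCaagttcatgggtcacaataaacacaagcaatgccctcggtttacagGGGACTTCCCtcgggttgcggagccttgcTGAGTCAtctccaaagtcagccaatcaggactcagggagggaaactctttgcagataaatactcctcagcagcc
Ccl12 (chr11:82101595-82101844, plus strand): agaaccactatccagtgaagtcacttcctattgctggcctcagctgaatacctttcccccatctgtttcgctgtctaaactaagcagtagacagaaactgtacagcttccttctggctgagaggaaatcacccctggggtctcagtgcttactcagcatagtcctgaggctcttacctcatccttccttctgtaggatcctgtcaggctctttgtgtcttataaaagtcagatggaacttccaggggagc
The Cxcl1 window held overlapping NF-kB matches on both strands, 71 to 61 bases before the start. The Cxcl10 window held an interferon-response pair on the minus strand 213 to 204 bases before the start, NF-kB matches at 159 to 150 and at 103 to 94, and a palindromic AP-1 match at 74 to 68. The Ccl12 window held none of these letters, nor did those of Ccl3, Cxcl12 and Cx3cl1, so 2 of the 6 windows held a match. Among 32851 promoters of the same length, 3.90% held the NF-kB consensus, 2.98% the interferon-response pair and 6.75% the AP-1 motif.

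The genes fell into 4 patterns across the classes, shown in the map of levels by class. The CC chemokines and Cxcl10 were highest in the myeloid classes, Cxcl1 was highest in macrophage-like and monocyte-like cells and, in Con, in fibroblast-like cells, with lower levels in mural-like cells and, below these, in astrocyte-like cells, which were above microglia-like ones, Cxcl12 was highest in fibroblast-like and endothelial-like cells, and Cx3cl1 in OPC-like (oligodendrocyte precursor) and ependymal-like cells. Levels are compared across classes within a gene, since capture differs between genes.

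**Figure D1:**
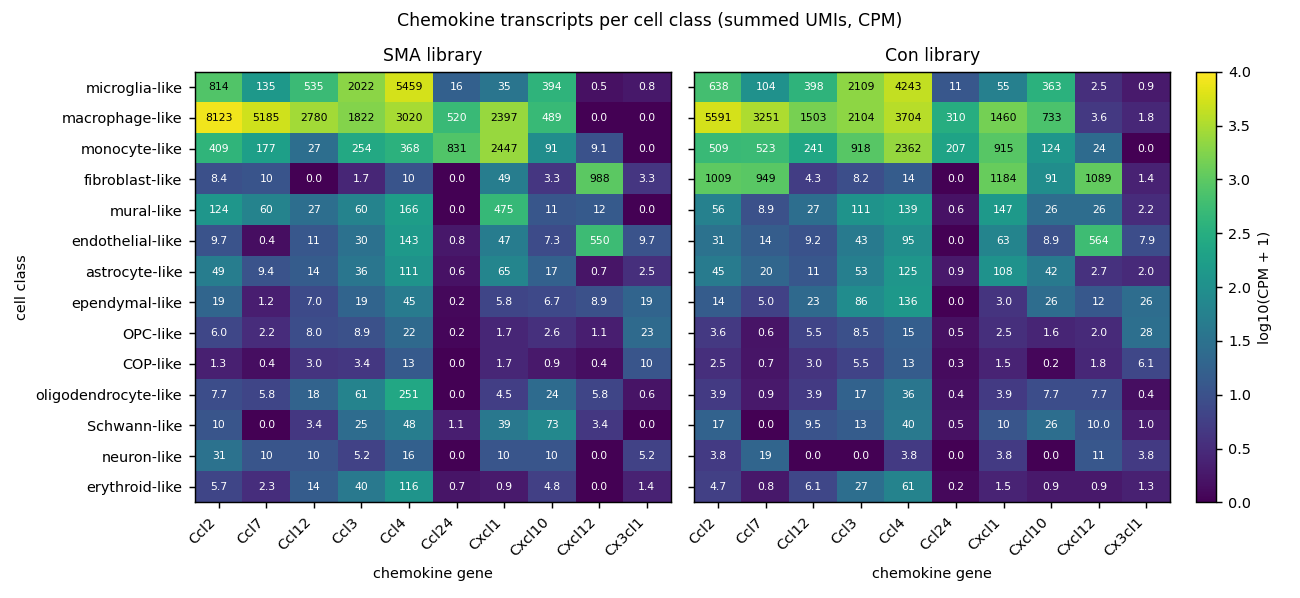
Level of each chemokine gene (columns) in each cell class (rows) as CPM (UMIs per 1000000 of the class's summed UMIs, printed in the cells), with colour on a log10(CPM + 1) scale, for the SMA and the Con library. Ccl4 reached 5459 and 4243 CPM in microglia-like cells, Ccl2 8123 and 5591 CPM in macrophage-like cells and Cxcl12 988 and 1089 CPM in fibroblast-like cells.

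Ccl3 and Ccl4, the macrophage inflammatory proteins, were highest in microglia-like and macrophage-like cells. In 1153 SMA and 1085 Con microglia-like cells, Ccl4 stood at 5459 CPM (5406 to 5511, from 41872 UMIs) in SMA and 4243 CPM (4193 to 4294, from 27382 UMIs) in Con. The log2 ratio of SMA over Con was 0.36 (0.34 to 0.39), beyond counting error and below 2-fold. Ccl3 went slightly the other way, at 2022 CPM in SMA and 2109 in Con, a log2 ratio of -0.06 (-0.09 to -0.03) that was 0.09 with each cell weighted equally. Macrophage-like cells (31 SMA and 59 Con cells) held Ccl3 at 1822 and 2104 CPM, within counting error of the microglial level in Con, and Ccl4 at 3020 and 3704.

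The monocyte chemoattractants Ccl2, Ccl7 and Ccl12, ligands of Ccr2, were highest in macrophage-like cells. Ccl2 was at 8123 CPM (7776 to 8481) in SMA and 5591 (5396 to 5791) in Con there, Ccl7 at 5185 and 3251, and Ccl12 at 2780 and 1503. The macrophage-like values came from few cells, and 5 cells held 41.1% of the SMA Ccl2 UMIs and 22.1% of those in Con. In microglia-like cells the same genes were lower but rested on many more cells. Ccl2 was at 814 CPM (794 to 834) in SMA and 638 (619 to 658) in Con, a log2 ratio of 0.35 (0.29 to 0.41). Ccl12 was at 535 (519 to 552) and 398 (383 to 414), a log2 ratio of 0.43 (0.36 to 0.50), and Ccl7 at 135 (127 to 143) and 104 (96.1 to 112), a log2 ratio of 0.38 (0.24 to 0.52). All 3 were thus higher in the SMA microglia-like cells by similar factors, each under 2-fold.

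The other members that passed 100 UMIs in microglia-like cells were Cxcl10, Cxcl1 and Ccl24. Cxcl10, the interferon-induced ligand of Cxcr3, was at 394 CPM in SMA and 363 in Con, a log2 ratio of 0.12 (0.04 to 0.20). Cxcl1, a neutrophil attractant read by Cxcr2, was at 34.5 CPM in SMA and 54.7 in Con, a log2 ratio of -0.66 (-0.90 to -0.43), with 5 cells holding 29.4% and 34.8% of its UMIs. Ccl24, an eosinophil attractant read by Ccr3, was at 16.0 and 11.0 CPM, a log2 ratio of 0.54 (0.11 to 0.99). None of the 8 members with at least 100 UMIs in these cells differed by 2-fold, and over all 8417 genes tested in the class 0.119% were at least 2-fold lower and 0.345% at least 2-fold higher in SMA. Restricting both libraries to cells of at least 5000 UMIs, with the Con barcodes those also listed in SMA, left Ccl4 at 0.33, Ccl2 at 0.37, Ccl12 at 0.47, Ccl7 at 0.44, Cxcl10 at 0.13, Ccl3 at -0.10 and Cxcl1 at -0.75.

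The share of cells carrying a transcript was compared after thinning each cell to 1000 UMIs, shown in the plot of shares. Of the microglia-like cells (1150 SMA and 1053 Con), 64.7% (61.9 to 67.5) in SMA and 55.3% (52.2 to 58.3) in Con had Ccl4, against 79.1% and 66.6% before thinning. For Ccl2 the thinned shares were 30.1% (27.4 to 32.8) and 20.5% (18.1 to 23.1), and for Ccl12 32.3% (29.6 to 35.0) and 23.4% (20.8 to 26.0). In erythroid-like cells, which should lack these genes, 4.07% of 442 SMA and 2.12% of 1038 Con cells had Ccl4 and 0.679% and 0.385% had Ccl2, at median depths of 9995 and 9860.5 UMIs. The microglial shares were thus far above that background. Among the cells of at least 5000 UMIs (830 and 693 cells), the Ccl2 shares stayed apart, at 34.8% (31.6 to 38.2) and 24.1% (upper bound 27.5), while the intervals for Ccl3 (61.9% and 62.3%), Ccl4 (70.7% and 68.0%) and Ccl12 (32.9% and 26.3%) overlapped.

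**Figure D2:**
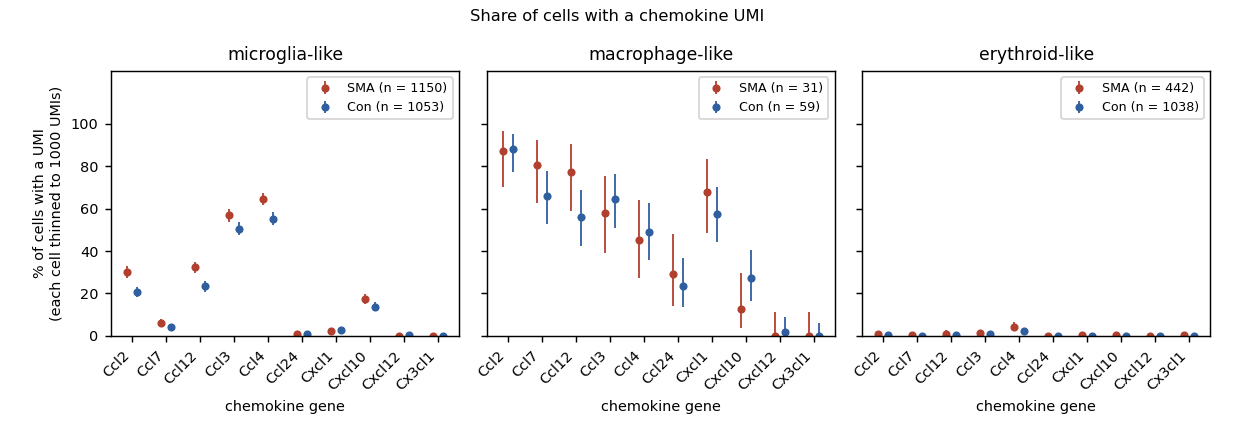
Percent of cells with at least 1 UMI of each chemokine after each cell was thinned to 1000 UMIs (points, with 95% exact binomial intervals as bars), in microglia-like, macrophage-like and erythroid-like cells of the SMA and Con libraries. Microglia-like shares of Ccl4 were 64.7% and 55.3%, and the erythroid-like shares of every gene stayed at or below 4.07%.

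Some genes that neighbour each other were often seen in the same cells. Pairs of genes that lie apart are not given here, so these shares cannot show whether position goes with sharing. Of the 653 SMA microglia-like cells with Ccl3, 85.3% also had Ccl4, against 37.6% of the 497 cells without it, and in Con the shares were 80.5% of 533 and 29.4% of 520. Ccl7 was seen in 15.9% of the 346 SMA cells with Ccl2 and in 2.11% of the 804 without, and in 16.2% of 216 and 0.836% of 837 Con cells. For Ccl12, on the same stretch of chromosome 11, the shares with and without Ccl2 were 37.9% and 29.9% in SMA and 44.4% and 17.9% in Con. These shares describe thinned cells, which were not matched for cell state.

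Ccl24 was highest in monocyte-like cells (29 SMA and 296 Con cells) in SMA and in macrophage-like cells in Con. It stood at 831 CPM in SMA and 207 in Con in the former and at 520 and 310 in the latter. The monocyte-like SMA value came from 7 cells, of which 5 held 84.7% of the UMIs. Cxcl1 in the same class was at 2447 and 915 CPM, with 5 SMA cells holding 84.8%, and Ccl4 stood at 368 and 2362 CPM. With so few SMA cells these classes were described by level only and not compared.

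Fibroblast-like cells, which in the cord are mainly meningeal and perivascular, held the widest gaps between the libraries. Over the class (64 SMA and 600 Con cells), Ccl2 had 5 UMIs in SMA and 2817 in Con, a log2 ratio of -6.91 (-8.54 to -5.69). Ccl7 had 6 and 2649 UMIs (-6.56), Cxcl1 29 and 3304 (-4.61) and Cxcl10 2 and 253 (-4.76). Of the 5 members that passed 100 UMIs, 4 were at least 2-fold lower in SMA, against 12.6% of all 4072 genes tested in the class, of which 4.72% were at least 2-fold higher. Cxcl12 was at 988 CPM in SMA and 1089 in Con, a log2 ratio of -0.14 (-0.27 to -0.01).

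These gaps lay with a cluster that SMA lacked, as the plot of the fibroblast-like clusters shows. A cluster of 433 Con cells and 0 SMA cells, led by Mfap5, Timp1, Ptx3 and Serpinb2, held 99.4% of the class's Con UMIs of Ccl2, 99.4% of Ccl7, 96.9% of Cxcl1 and 89.7% of Cxcl10, beside 49.1% of the class's Con UMIs over all genes. In it Ccl2 was at 2044 CPM (1969 to 2121), Ccl7 at 1923, Cxcl1 at 2336 and Cxcl10 at 166, and 53.2% of 391 thinned cells had Ccl2. The microglial genes were low, with Ccl4 at 16.1 CPM, Ccl3 at 8.76, Ccl12 at 4.38 and Ccl24 at 0. Of the chromosome 11 trio the cluster thus held Ccl2 and Ccl7 but little Ccl12. Its median depth was 2804 UMIs, and of its 71 cells with at least 5000 UMIs 3 had a barcode listed in SMA, against 99.0% of such Con barcodes over the whole library. A cell state and a feature of the Con library cannot be told apart for a cluster found in 1 library.

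The other cluster, led by Mfap4, Slc6a13, A2m and Igf2, was in both libraries (64 SMA and 167 Con cells) and carried Cxcl12. There Cxcl12 was at 988 CPM (910 to 1071) in SMA and 1922 (1851 to 1996) in Con, a log2 ratio of -0.96 (-1.09 to -0.83), and thinned shares were 53.1% (40.2 to 65.7) and 80.2% (73.4 to 86.0). The 155 SMA cells with a shared barcode, left out here, stood at 1775 CPM. With them the SMA level was 1227 CPM, still below that of Con, whereas the share became 73.4% (66.9 to 79.3), which overlaps that of Con. In cells of at least 5000 UMIs the levels were 1002 and 1882 CPM. Of the 2692 genes tested in this cluster, 5.31% were at least 2-fold lower and 2.90% at least 2-fold higher in SMA, and Cxcl12 was just inside 2-fold. Ccl2 had 5 and 17 UMIs, Ccl7 was at 10.0 and 10.6 CPM and Cxcl1 at 48.5 and 73.2 (log2 ratio -0.59, -1.24 to 0.01), so for these 3 genes the wide class gaps were not seen within the shared cluster. Cxcl10 had 2 and 26 UMIs there, too few to pass the minimum, a log2 ratio of -2.45 (-5.57 to -0.45).

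**Figure D3:**
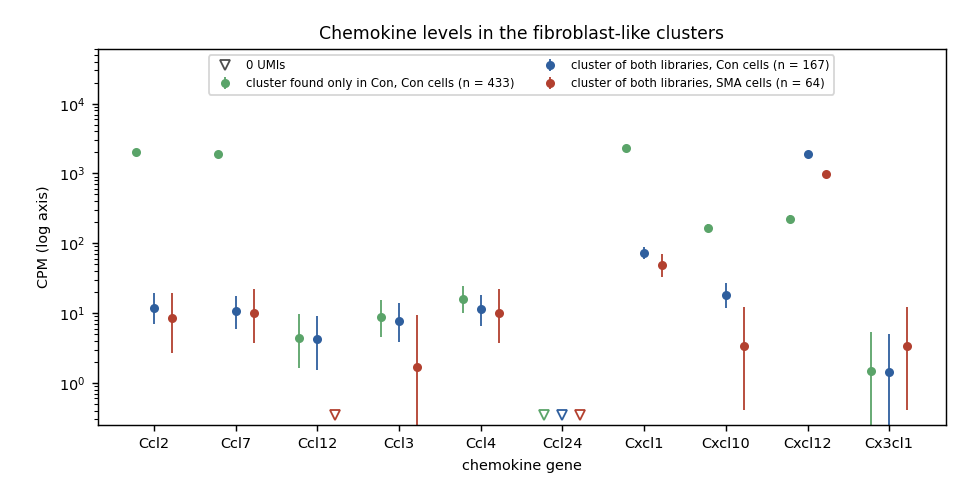
CPM (log axis) of the 10 chemokines in the fibroblast-like cluster found only in Con and in the cluster of both libraries, with 95% exact Poisson counting intervals as bars and open triangles for 0 UMIs. Ccl2, Ccl7 and Cxcl1 lie near 2000 CPM in the Con-only cluster and under 100 CPM in the shared cluster, and Cxcl12 is highest in the Con cells of the shared cluster.

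In endothelial-like cells (329 SMA and 455 Con cells), Cxcl12 was the member that belonged to the class, and it was level between the libraries. It stood at 550 CPM (521 to 580) in SMA and 564 (541 to 589) in Con, a log2 ratio of -0.04 (-0.14 to 0.06) that ran from -0.26 with shared SMA barcodes kept to 0.32 with no upper gene limit, with thinned shares of 31.3% (26.3 to 36.6) and 27.5% (23.4 to 31.8). Endothelial-like Cxcl12 thus ranked after the fibroblast-like class and above mural-like cells, where it was at 12.4 and 26.3 CPM. Cxcl1 was at 47.0 and 63.1 CPM, a log2 ratio of -0.43 (-0.76 to -0.10), and the ratio became 0.27 with shared SMA barcodes kept. Ccl2 was at 9.72 and 30.9 CPM (-1.67), but 5 Con cells held 93.9% of its 114 UMIs. Of the 5 endothelial-like members tested, Ccl2 was at least 2-fold lower, against 0.772% of all genes, and none was 2-fold higher (0.933%).

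Mural-like cells, the pericytes and smooth muscle of the vessel wall (94 SMA and 265 Con cells), had Cxcl1 at 475 CPM (420 to 535) in SMA and 147 (130 to 166) in Con, a log2 ratio of 1.69 (1.44 to 1.94). The SMA UMIs came from 22 cells, and 5 of them held 70.1%, against 28.1% in 5 of the 70 Con cells. The share of thinned cells with Cxcl1 was 11.8% (6.05 to 20.2) in SMA and 13.3% (9.45 to 18.0) in Con. The shares overlapped, while the gap in UMIs lay in few cells. Ccl2 was at 124 and 56.4 CPM, a log2 ratio of 1.14 (0.68 to 1.59), with 61.4% and 53.5% of UMIs in 5 cells, and its ratio was 0.37 when each cell was weighted equally. These were 2 of the 4 mural-like members tested, against 1.05% of all genes at least 2-fold higher in the class, and none was 2-fold lower (1.55%).

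Astrocyte-like cells (1288 SMA and 1562 Con cells) had lower Cxcl1 and Cxcl10 levels in SMA. Cxcl1 was at 64.8 CPM (59.5 to 70.4) in SMA and 108 (102 to 114) in Con, a log2 ratio of -0.74 (-0.89 to -0.59). Cxcl10 was at 16.8 (14.1 to 19.7) and 41.9 (38.1 to 46.0), a log2 ratio of -1.32 (-1.61 to -1.05), and Ccl7 at 9.44 and 19.6 (-1.06, -1.45 to -0.68). Ccl2 was level, at 48.6 and 45.4 CPM (0.10, -0.10 to 0.29). Of the 7 members tested, Cxcl10 and Ccl7 were at least 2-fold lower, against 0.373% of all genes in the class (Cxcl10 was at -0.73 with shared SMA barcodes kept, and Ccl7 at -0.42 with a mitochondrial limit of 20%), and none was 2-fold higher (0.422%). The carriers were few, since 120 SMA and 169 Con cells had Cxcl1 and 31 and 57 had Cxcl10, and 5 cells held 55.6% and 41.2% of the Cxcl10 UMIs. Thinned shares did not separate the libraries, at 3.65% (2.69 to 4.82) and 3.33% (2.50 to 4.34) for Cxcl1 and 0.621% (0.269 to 1.22) and 1.34% (0.834 to 2.05) for Cxcl10.

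Some cells of other classes also carried microglia markers, and the chemokines sat unevenly in them. A cell was counted as a marker cell where it had UMIs of at least 3 of 9 microglia markers, a rule chosen after the data were seen (Sparc was left out because every class expressed it). Such cells made up 6.06% of SMA and 5.89% of Con astrocyte-like cells and held 7.66% and 7.64% of the class's UMIs, but 88.6% and 93.9% of its Ccl4 and 85.4% and 93.4% of its Ccl3. For Cxcl1 they held 17.9% and 11.8%, and for endothelial Cxcl12 3.75% and 4.13%. In fibroblast-like cells they were 34.4% of SMA and 15.3% of Con cells and held 36.2% and 28.5% of the class's UMIs. There they held 46.3% and 47.3% of Cxcl12, a gene at 0.521 and 2.48 CPM in microglia-like cells. Without marker cells the astrocyte-like log2 ratio was -0.84 for Cxcl1, -1.86 for Cxcl10 and -1.17 for Ccl7, and in mural-like cells 1.73 for Cxcl1, so those differences were as large. Astrocyte-like Ccl4 was at 13.7 CPM in SMA and 8.21 in Con without them. Whether doublets or free RNA gave these UMIs was not tested.

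**Figure D4:**
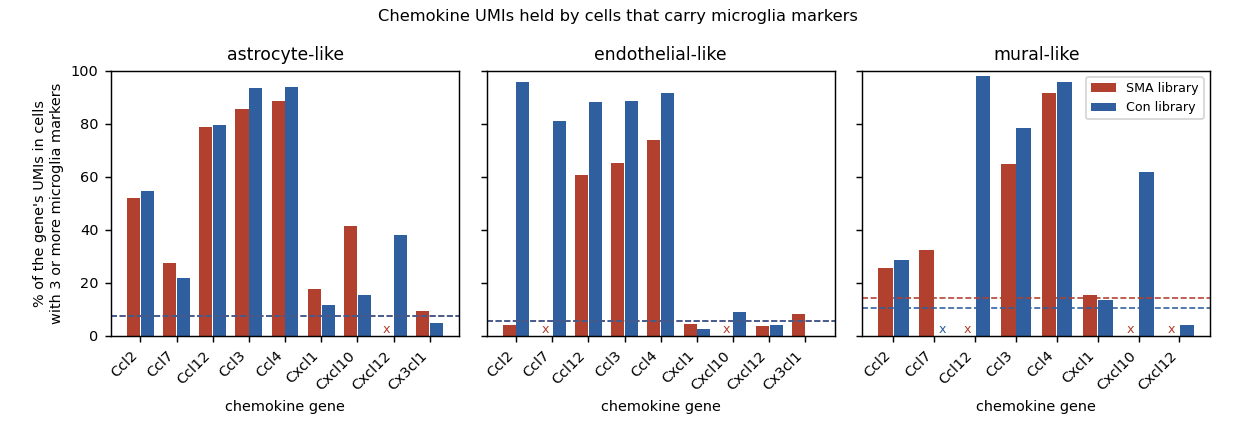
Percent of each chemokine's UMIs (bars, per library) held by cells that carry 3 or more of 9 microglia markers, in astrocyte-like, endothelial-like and mural-like cells, with dashed lines for the percent of all UMIs of the class those cells hold and x for fewer than 20 UMIs. In astrocyte-like cells they held 88.6% and 93.9% of Ccl4 but 17.9% and 11.8% of Cxcl1.

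Several of the other wide ratios rested on such cells. In oligodendrocyte-like cells Ccl4 was at 251 CPM in SMA and 36.0 in Con (log2 ratio 2.80), with 80.1% of the SMA UMIs in 5 cells, and the ratio was 0.34 without marker cells. In ependymal-like cells, the ciliated lining of the central canal, Ccl3 was at 18.5 and 86.2 CPM (-2.22) and Ccl4 at 45.2 and 136 (-1.58), and these became -0.86 and 0.78. Endothelial-like Ccl2 turned from -1.67 to 2.78, from 23 and 5 UMIs. Erythroid-like cells, which mark the background, had Ccl4 at 116 CPM (106 to 126) in SMA and 61.1 (56.3 to 66.1) in Con and Ccl12 at 13.5 and 6.07, so both were higher in SMA there too. Most of these UMIs also sat in marker cells (90.9% and 88.4% of Ccl4, 78.0% and 83.6% of Ccl12), and without them Ccl4 was at 11.6 and 7.43 CPM.

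Most of the remaining pairs that passed 100 UMIs stayed within 2-fold. Ccl4 was at 143 CPM in SMA and 94.8 in Con in endothelial-like cells (log2 ratio 0.60, but 39.9 and 8.60 CPM and 2.22 without marker cells, which held 73.7% and 91.4% of its UMIs), 166 and 139 in mural-like cells (0.26), 22.2 and 14.9 in OPC-like cells (0.57) and 47.7 and 40.0 in Schwann-like cells (0.26), with a log2 ratio of -0.17 in astrocyte-like cells. In mural-like cells, marker cells held 91.5% and 95.6% of the Ccl4 UMIs. Without them mural-like Ccl4 was at 16.5 and 6.86 CPM, from few UMIs, while its ratio was -0.58 with cells weighted equally. Ccl3 was at 30.4 and 43.1 CPM in endothelial-like cells (-0.50, but 1.11 without marker cells, from 26 and 18 UMIs), 60.2 and 111 in mural-like cells (-0.88, but -0.11 from 12 and 43), 36.3 and 52.9 in astrocyte-like cells (-0.54, but 0.60 from 45 and 37), and 8.94 and 8.53 in OPC-like cells (0.07). Over all cells of the compared classes where both passed 100 UMIs, Ccl3 had a lower ratio than its neighbour Ccl4, as it did in microglia-like cells. Macrophage-like cells, which were not compared, went slightly the other way, with 1.66 Ccl4 UMIs per Ccl3 UMI in SMA and 1.76 in Con. Ccl12 was at 13.8 and 11.2 CPM in astrocyte-like cells (0.30) and 7.97 and 5.52 in OPC-like cells (0.53), and Ccl2 at 6.05 and 3.61 in OPC-like cells (0.74) and 19.2 and 13.6 in ependymal-like cells (0.50). The OPC-like Ccl12 ratio rose past 2-fold at resolution 2 (1.09) and with no upper gene limit (1.05). Marker cells held 31.9% of its SMA and 50.9% of its Con UMIs, and leaving them out gave 5.64 against 2.80 CPM. Erythroid-like Ccl3 was at 39.7 and 27.0 CPM (0.56), oligodendrocyte-like Ccl3 at 60.9 and 17.1 (1.83, but -0.43 without marker cells and -0.31 with cells weighted equally), and COP-like Ccl4, in cells like committed oligodendrocyte precursors, at 12.8 and 13.5 (-0.08). That COP-like ratio was 0.56 at resolution 0.5 and 1.02 with the cluster of over 30% ribosomal UMIs kept. Schwann-like Cxcl10 was at 72.7 and 26.5 CPM (1.46, 0.91 to 2.01), with 64.1% of the SMA UMIs in 5 cells, and at a log2 ratio of 0.70 with cells weighted equally.

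Over all classes, 46 of the 110 pairs of a gene and a class passed 100 UMIs. Of these, 9 were at least 2-fold lower in SMA, against 1.15% of all pairs of genes and classes, and 6 were at least 2-fold higher, against 0.869%. The 9 lower pairs were 4 in fibroblast-like, 2 in astrocyte-like, 2 in ependymal-like and 1 in endothelial-like cells with none in microglia-like cells, and the higher ones 2 in mural-like, 2 in oligodendrocyte-like, 1 in Schwann-like and 1 in erythroid-like cells. Among all genes the share lower was 0.146% in ependymal-like cells, where 2 of 4 members were lower. The share higher was 1.17% in oligodendrocyte-like cells (2 of 2 members), 1.40% in Schwann-like cells (1 of 2) and 1.76% in erythroid-like cells (1 of 3). No member was lower in those 3 classes, where 0.641%, 0.925% and 1.03% of all genes were, nor higher in ependymal-like cells (0.291%). The 5 OPC-like and the single COP-like pair stayed within 2-fold, where 0.120% and 0.222% of all genes were lower and 0.268% and 0.457% higher. This was not so in every setting. OPC-like Ccl12 was more than 2-fold higher in SMA at resolution 2 (log2 ratio 1.09) and with no upper gene limit (1.05). With the high-ribosome cluster kept, OPC-like Ccl12 (1.02) and COP-like Ccl4 (1.02) were both past 2-fold. In the cells of at least 5000 UMIs with listed Con barcodes, 5 of 40 pairs were lower and 5 higher, against 0.682% and 0.766%. Without marker cells 25 pairs passed, of which 2 were lower (astrocyte-like Cxcl10 and Ccl7, background 0.469%) and 4 higher (mural-like Cxcl1 and Ccl2, Schwann-like Cxcl10 and endothelial-like Ccl4, background 0.555%). The call for endothelial-like Ccl4 was made in this setting and not with all cells. Over all cells, 5 cells held 90.4% of its SMA and 66.6% of its Con UMIs, and its ratio was 0.27 with cells weighted equally. With marker cells left out, the fibroblast-like class had under 50 SMA cells and was not compared, so its 4 lower pairs could not be counted.

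**Figure D5:**
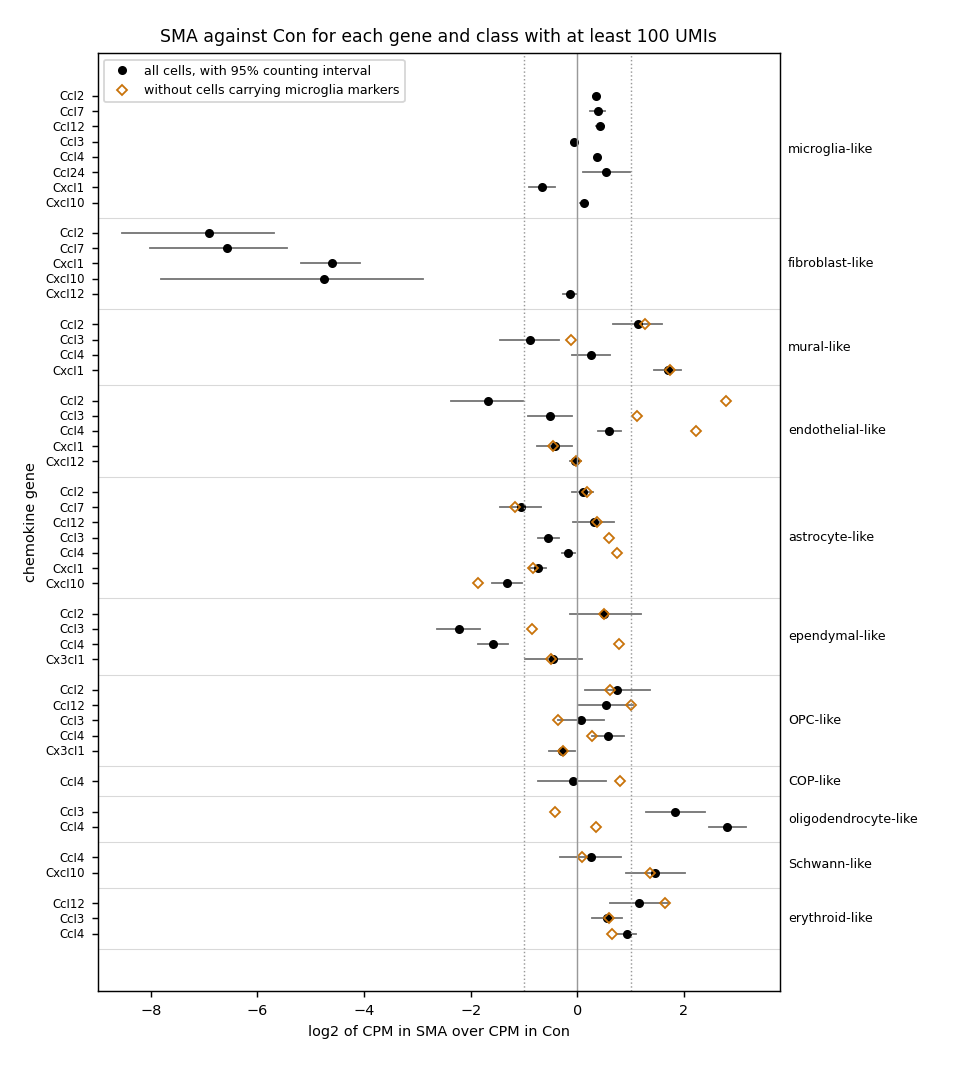
Log2 ratio of CPM in SMA over CPM in Con for each of the 46 pairs of chemokine and cell class with at least 100 UMIs (black points, 95% counting intervals as bars), and the same without cells carrying microglia markers (open diamonds), with dotted lines at 2-fold. Microglia-like points lie within 2-fold, 4 of the 5 fibroblast-like points lie below -4, and the diamonds for Ccl3 and Ccl4 move away from the points in most classes.

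Cx3cl1, the fractalkine ligand, was low in every class. It was highest in OPC-like cells (2005 SMA and 1729 Con cells), at 22.9 CPM (20.2 to 25.8) in SMA and 27.9 (24.7 to 31.4) in Con, a log2 ratio of -0.29 (-0.54 to -0.04). Ependymal-like cells were next, at 18.8 (14.8 to 23.4) and 25.7 (19.1 to 33.8), within counting error of the OPC-like level in each library. The OPC-like UMIs came from 249 and 257 cells, with 3.83% and 3.96% of them in 5 cells, so it was spread over many cells. Neurons, its textbook source, were 42 SMA and 26 Con cells and were not compared.

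Most receptors stayed within 2-fold between the libraries. Of 28 receptor and class pairs, 1 was at least 2-fold lower, Ackr3 in fibroblast-like cells (25.1 and 154 CPM), and 1 higher, Cx3cr1 in erythroid-like cells (135 and 130 UMIs, of which 7 and 8 lay outside marker cells, themselves 7.22% of SMA and 3.84% of Con cells there), beside 1.15% and 0.869% of all pairs and, in fibroblast-like cells, 12.6% of all genes lower. In microglia-like cells Cx3cr1 was at 1251 CPM in SMA and 1167 in Con and Ccr1, a receptor for Ccl3, at 65.3 and 87.2. Ackr3, the Cxcl12 scavenger, was at 177 and 221 CPM in mural-like cells and, in Con, at 309 in the Con-only fibroblast-like cluster against 4.93 in the shared one, where SMA cells were at 25.1 (15 and 7 UMIs in SMA and Con), so the direction there was not that of the class. Cxcr4, the signalling Cxcl12 receptor, was at 45.5 and 33.8 CPM in ependymal-like cells. The Ccl2 receptor Ccr2 was highest in monocyte-like cells, from 28 SMA and 37 Con UMIs, and is named after its values were seen.

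Of 30 pairs of other chemokines and classes, 6 were at least 2-fold lower, all of them in fibroblast-like cells (12.6% of all genes there), and 3 higher, beside 1.15% and 0.869% of all pairs. The higher ones were all Cxcl2, of which the endothelial-like call stayed without marker cells (1.14, then 1.36), while the oligodendrocyte-like ratio went from 2.27 to -0.49, from 10 SMA and 22 Con UMIs, and the erythroid-like one from 1.01 to -0.37, from 8 and 25. Cxcl2, a close relative of Cxcl1, was at 1519 and 1133 CPM in microglia-like cells (log2 ratio 0.42) and at 33.4 and 56.3 in astrocyte-like cells (-0.75, and -1.75 without marker cells). Its direction was that of Cxcl1 in astrocyte-like cells but the opposite of Cxcl1 (-0.66) in microglia-like cells. Astrocyte-like Cxcl14 was at 283 and 230.5 CPM (0.30). The Con-only fibroblast-like cluster also held Cxcl2 (808 CPM), Ccl11 (307) and Cxcl5 (288), against 33.8, 43.6 and 0 in Con cells of the shared cluster, while Cxcl16 was lower in it, at 29.9 against 764. In SMA cells of the shared cluster Cxcl16 was at 194 CPM, below the Con cells there, whereas Cxcl14, counted as lower over the class, was at 36.8 CPM from 22 SMA UMIs and 17 Con UMIs.

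Response genes that are known to move with chemokines were read from lists. In microglia-like cells the median log2 ratio was 0.25 over 15 NF-kB response genes, -0.19 over 18 immediate early and stress genes and -0.69 over 4 interferon response genes, beside 0.05 for all genes. In astrocyte-like cells the medians were -0.09 over 13, -0.03 over 18 and -0.44 over 4 genes, beside -0.06. In fibroblast-like cells they were -2.50, with 5 of 8 NF-kB response genes at least 2-fold lower, -1.66, with 13 of 18 immediate early and stress genes lower, and -3.10, with 5 of 6 interferon response genes lower, beside -0.01. In this class 12.6% of all genes were at least 2-fold lower, and the lists compare SMA cells of the shared cluster with Con cells that were mostly (433 of 600) of the Con-only cluster. Within the shared cluster most immediate early and stress genes were also lower in SMA. Fos was at 814 CPM in SMA and 1375 in Con there, and Ier3 at 573 and 1029. Egr2 and Hspa1b, with few UMIs, went the other way. Nfkbia, the NF-kB inhibitor, was at 1394 CPM in the Con-only cluster and at 322 (Con) and 166 (SMA) in the shared one. The part of these responses in the chemokine levels was not tested.

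The genes whose levels ran closest to each member were found over 22 points, 11 classes in 2 libraries, by Pearson's r on log2(CPM + 1) values, as a description, since the points share libraries and depth. Ccl3 and Ccl4 were closest to each other (r = 0.98) and next to Tnf, followed by C3ar1 for Ccl3 and C1qa for Ccl4. Ccl12 ran with Nfkbid, Gpr34 and Plek, and Ccl24 with Tlr13, C5ar2 and Myo1g, all at r of 0.95 or more. Ccl2 ran with Nfkbiz, Itgb5 and Cebpb (0.915 to 0.906) and Ccl7 with Ccl2 (0.903), Lgals3bp and Lsp1. Cxcl1 ran with Slc43a3 (0.907), Cyth3 and Oaf, and Cxcl10 with Tlr6 (0.908), Nfe2l2 and Neat1. Cxcl12 ran with Notum (0.956), Wfdc1 and Akr1c14, and Cx3cl1 with Gm10419 (0.886), Prmt8 and Nova2.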

How the data were processed

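The authors deposited droplet counts, whole numbers of UMIs per gene and barcode, 1 matrix per library, made with Cell Ranger (version 4.0.0 in the file header) on mm10, and the submitters' processing notes also name Seurat 3.2.2. From these counts, barcodes with 200 to 4000 genes and under 10% mitochondrial UMIs were kept (the upper limit also served against doublets, and no caller was run). A Con cluster with over 30% ribosomal UMIs was removed and the rest clustered again. SMA barcodes also listed in Con were clustered with the other cells and left out afterwards.

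Cells were normalised to 10000 UMIs, log-transformed and clustered with scanpy 1.11.5 (2000 variable genes, 30 components, 20 neighbours, resolution 1), and clusters were named from marker lists. UMIs were summed per class and library and divided by the class total (CPM). With 1 library per group no test was possible. Log2 ratios with 95% exact intervals were given for genes with at least 100 UMIs over both libraries, and 2-fold marked a difference of size. Ratios, their intervals and the 2-fold calls were checked on simulated independent counts, which lack the clumping in few cells seen here. Shares were not simulated, and only their interval formula was checked against a standard one. Shares of cells were taken after thinning to 1000 UMIs. The genes named were the 10 members, each with its values where it passed 100 UMIs in a compared class, at most 4 genes of each other list per class, those with most UMIs, and for each member the 3 genes of highest r. Genes given for the fibroblast-like clusters were named after their values were seen. A planned comparison of protein sequences was not run. The members and lists were chosen with earlier results of these data known. The cells of a class that carry microglia markers were counted by a rule set after the data were seen. Settings for depth, filters, clustering, weighting and minimum UMIs were varied.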

Additional observations from a re-analysis of the deposited data

How the results depend on the processing

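No paired analysis was possible because each group was 1 library. The class with the highest level was kept for all 10 genes with all cells of shared barcodes, at resolution 2 and without marker cells, but for 4 in cells of at least 5000 UMIs (with or without the limit to Con barcodes listed in SMA), where the macrophage-like and monocyte-like classes had too few cells. The class changed for Ccl3 and Ccl24 at a mitochondrial limit of 20% and with cells weighted equally, for Ccl24 with no upper gene limit, and for Ccl24 and Cxcl10 at resolution 0.5. The 9 pairs at least 2-fold lower in SMA became 5 in Con cells of at least 5000 UMIs listed in SMA, 5 with the fibroblast-like cluster of both libraries alone, 2 without marker cells, 19 at a minimum of 20 UMIs and 5 at 300. The last 2 settings made the 6 higher pairs 12 and 2. Without marker cells the fibroblast-like class was not compared. It held 4 of the 9 lower pairs and 6 lower pairs of other chemokines, so the falls in that setting come partly from its absence. The 11 pairs of receptors and other chemokines past 2-fold became 19 with all shared barcodes, 5 in the listed deep cells, 20 at resolution 0.5, 5 with the fibroblast-like cluster of both libraries, 7 with cells weighted equally, 38 and 7 at 20 and 300 UMIs, and 2 without marker cells. The 8 pairs with separate thinned shares became 15 without thinning and 3 in the listed deep cells. The counts of response lists above the median of all genes stayed within 1.5 times. Of the ratios past 2-fold, those that changed sign were endothelial-like Ccl2 (0.45 with no upper gene limit, 2.78 without marker cells), ependymal-like Ccl4 (0.78 without marker cells) and oligodendrocyte-like Ccl3 (-0.14 with no upper gene limit, -0.43 without marker cells, -0.31 with cells weighted equally). Ratios under 2-fold changed sign 33 times, in 14 pairs, such as astrocyte-like Ccl4 (from -0.17 to 0.73 at resolution 0.5), endothelial-like Ccl3 (from -0.50 to 0.62) and mural-like Ccl4 (from 0.26 to -0.61) with no upper gene limit, and fibroblast-like Cxcl12 (from -0.14 to 0.53 with cells weighted equally). Leaving aside the UMI minimums, and the fibroblast-like setting in other classes, which cannot change a ratio, 382 ratios lay within the counting interval of the reported value, and 116 and the 6 sign changes past 2-fold did not. The cause was not tested, and the 2 settings on marker cells and on fibroblast-like clusters were chosen after seeing the data. With 1 pooled library per group, animal, library and genotype cannot be told apart, and macrophage-like and monocyte-like SMA values rest on 31 and 29 cells.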
